A study of Mus musculus with 4 samples.

Results

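The genes described here encode the enkephalin precursor, the enzymes that cut enkephalins out of it, the peptidases that destroy them and the receptors that sense them. They were chosen by name: Penk and Mme because their values were higher in podoplanin-deficient fibroblasts in earlier results of these arrays, and the others because their products make, cut or bind enkephalins. Of 10 named genes, 9 had a probe set in the platform annotation, out of 19751 genes measured, and each of the 9 was read by 1 probe set. Pcsk2, the prohormone convertase that usually follows Pcsk1, was listed under no probe set there. The deposited descriptions do name a probe set for it, but the platform annotation was followed and Pcsk2 was not analysed here.

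Gene expression was measured on 1-colour arrays in mouse embryonic fibroblasts, which are connective tissue cells put into culture from embryos. The 2 groups were Pdpn-/- cells (Pdpn KO), which lack podoplanin, a mucin-type membrane glycoprotein of fibroblasts and lymphatic endothelium, and wild-type (WT) cells, with 2 arrays each. Both came from C57BL6/J embryos taken between embryonic days 9.5 and 13.5, were cultured for 7 to 10 days in medium with 10% fetal calf serum, and were depleted of CD31+ and CD45+ cells, which removes endothelial and blood cells. The labels call the arrays biological replicates; no source used here says how many embryos were behind each culture, how old each was or how the knockout allele was built.

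Enkephalins are opioid pentapeptides. Preproenkephalin enters the secretory pathway, where convertases cut it at pairs of basic residues and a carboxypeptidase trims the basic residues left behind. Once released, the peptides act on opioid receptors until peptidases on cell surfaces and in the cytosol cleave them. Penk is best known in neurons and neuroendocrine cells, and its transcript is also found in mesenchymal tissues of the embryo.

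Values are RMA intensities, a summary of each probe set's brightness after background correction and quantile normalisation; fold changes and errors are on the log2 scale of these intensities, and intensities of different genes are not compared because probe sets differ in their response. Pdpn itself read 179 and 201 in the Pdpn KO arrays, against 4486 and 3106 in the WT arrays. The median intensity of the arrays lay between 283 and 290, close because RMA makes it so. All 10 fibroblast markers listed had a probe set, and Vim, vimentin, ranged from 17537 to 18278 over the 4 arrays. Others varied more between replicates. Col1a1, a collagen chain, read 5799 and 8334 in the Pdpn KO arrays, against 5895 and 8938 in the WT arrays. Lum, lumican, had low values, 69.1 and 122 in the Pdpn KO arrays, against 47.6 and 69.4 in the WT arrays. The labels give all samples as female, but Eif2s3y, on the Y chromosome, read 1673 and 35.1 in Pdpn KO replicates 1 and 2, against 1534 and 1474 in WT replicates 1 and 2. Xist, the transcript of the inactive X, read 48.9 and 1831 in the Pdpn KO arrays, against 48.6 and 57.4 in the WT arrays. So only Pdpn KO replicate 2 had the pattern of its label. Log2 differences without that array are given below for the 9 enkephalin genes, but not for the cell type markers.

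**Figure D1:**
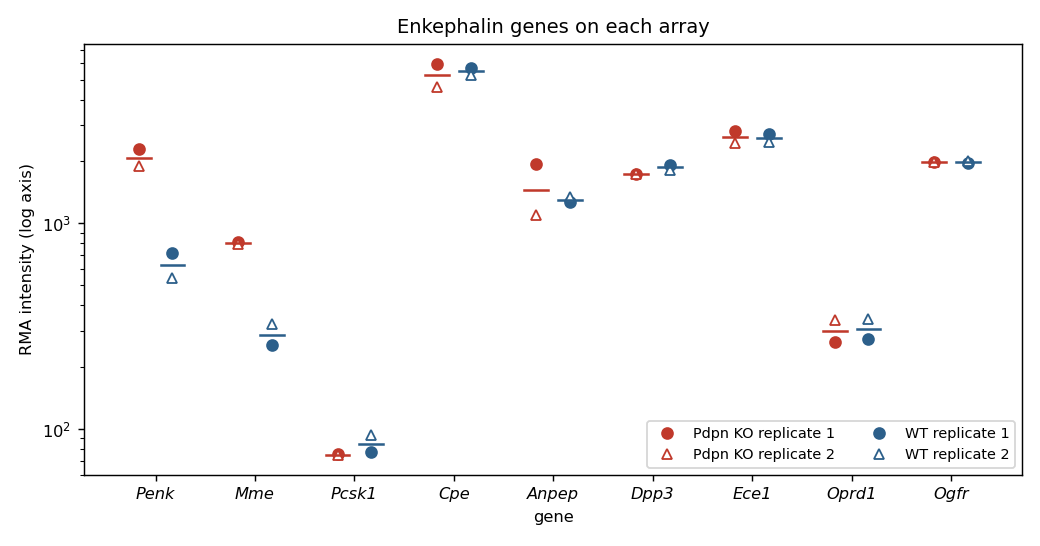
RMA intensity (log axis) of the 9 measured enkephalin genes on each of the 4 arrays; red symbols are Pdpn KO and blue symbols WT, circles replicate 1, triangles replicate 2, and bars the geometric mean of each genotype. For Penk and Mme both Pdpn KO symbols lie well above both WT symbols, whereas for Cpe, Anpep, Ece1, Oprd1 and Ogfr the genotypes overlap.

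Penk, which encodes the precursor carrying the Met- and Leu-enkephalin sequences, had the higher values in Pdpn KO for which it was picked. Its intensity was 2290 and 1894 in the Pdpn KO arrays, against 719 and 543 in the WT arrays. The Pdpn KO values were above the WT values with no overlap, and in each genotype replicate 1 was the higher. The geometric means were 2082 in Pdpn KO and 625 in WT, a 3.33-fold difference. On the log2 scale the means were 11.02 ± 0.19 in Pdpn KO and 9.29 ± 0.29 in WT (SD, n = 2 each), which differ by 1.74 ± 0.17 (SE). Between arrays of the same replicate number the log2 difference was 1.67 for replicates 1 and 1.80 for replicates 2. Without Pdpn KO replicate 2, so that the 3 arrays share the sex-linked pattern, it was 1.87 ± 0.20 (SE). The gene lies on chromosome 4 in band A1, per the deposited descriptions, while Pdpn lies on the same chromosome in band E1. In such bulk cultures, a change in the number of cells that make a transcript cannot be told apart from a change in the amount per cell.

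Mme encodes neprilysin, a zinc endopeptidase of the cell surface that cleaves enkephalins, among other peptides, and that has long been called enkephalinase. It was picked in the same way, and so the direction of its difference is no result either. Its intensity was 813 and 794 in the Pdpn KO arrays, against 257 and 323 in the WT arrays. The genotypes did not overlap, and the Pdpn KO arrays lay closer together than the WT arrays did. The geometric means were 804 in Pdpn KO and 288 in WT, a 2.79-fold difference. The log2 means were 9.65 ± 0.02 in Pdpn KO and 8.17 ± 0.23 in WT (SD, n = 2 each), which differ by 1.48 ± 0.14 (SE). The log2 difference was 1.66 between replicates 1 and 1.30 between replicates 2, and 1.50 ± 0.19 (SE) without Pdpn KO replicate 2. Mme lies on chromosome 3, band E1. Counted from the most positive log2 difference, Penk had rank 3 and Mme rank 6 among the 19751 genes. The choice of Penk and Mme rests on this contrast. These ranks and the sizes of the differences therefore partly restate the choice, and no test is given for either gene.

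Unlike Penk and Mme, the other 7 genes were chosen for what they do, and their values can be tested. None of the 7 passed an adjusted p of 0.05 in limma, the linear model fitted across all genes, and 0 had an unadjusted p under 0.05. Over all genes, 0.0101% passed, namely Pdpn and Decr1, both lower in Pdpn KO, and 2.01% had an unadjusted p under 0.05, so a count of 0 in 7 is near the background. Without Pdpn KO replicate 2, the count past the adjusted p of 0.05 was again 0 of 7, where 0.253% of all genes passed. The unadjusted count did not stay at 0 in that fit, which leaves 1 Pdpn KO array and so no spread within that genotype. The log2 differences of the 7 had a median of -0.03, against 0.0043 over all genes, and 2 were above and 5 below zero. No exact permutation test can pass 0.05 with 4 arrays, since the smallest p it can give is 0.333.

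Pcsk1 encodes a prohormone convertase of regulated secretory granules that makes the first cuts in proenkephalin. Its intensity was 75.4 and 74.5 in the Pdpn KO arrays, against 76.9 and 93.2 in the WT arrays. Both Pdpn KO values lay below both WT values, though WT replicate 1 was close to them; 9.74% of all genes were arranged this way. The log2 difference was -0.18 ± 0.13 (limma SE, with 2 arrays of each genotype), and the 95% interval ran from -0.50 to 0.14 (limma adjusted p = 1.00). RMA gives no detection calls, and it cannot be said from these values whether Pcsk1 was transcribed.

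Cpe, carboxypeptidase E, removes the basic residues that the convertases leave on peptide ends. It read 5987 and 4596 in the Pdpn KO arrays, against 5711 and 5296 in the WT arrays. The WT values lay between the Pdpn KO values, and replicate 1 was above replicate 2 in both genotypes. The log2 difference was -0.07 ± 0.15 (SE), with an interval from -0.44 to 0.31 (limma adjusted p = 1.00).

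Anpep, aminopeptidase N, a surface enzyme that takes the first tyrosine off enkephalins, varied most among the 7 within Pdpn KO. It read 1937 and 1096 in the Pdpn KO arrays, against 1265 and 1347 in the WT arrays. Pdpn KO replicate 1 was the highest of the 4 arrays and Pdpn KO replicate 2 the lowest. The log2 SD was accordingly 0.58 in Pdpn KO and 0.06 in WT (n = 2 each). The log2 difference was 0.16 ± 0.26 (SE; limma adjusted p = 1.00), and its interval from -0.46 to 0.78 was the widest of the 7. It was 0.57 without Pdpn KO replicate 2 (limma adjusted p = 0.471) and -0.25 without Pdpn KO replicate 1 (limma adjusted p = 1.00), so the sign of the difference rested on which Pdpn KO array was used.

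Dpp3, dipeptidyl peptidase 3, a largely cytosolic enzyme that takes dipeptides from the start of enkephalins, read 1733 and 1739 in the Pdpn KO arrays, against 1926 and 1823 in the WT arrays. Both Pdpn KO values were below both WT values by a small margin. The log2 difference was -0.11 ± 0.11 (SE), with an interval from -0.38 to 0.16 (limma adjusted p = 1.00). Together with Pcsk1, this made 2 of the 7 genes without overlap between the genotypes, and 24.4% of all genes were without overlap in either direction.

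Ece1, endothelin-converting enzyme 1, is a metalloprotease related to neprilysin that processes endothelins and also cleaves other small peptides. It read 2820 and 2453 in the Pdpn KO arrays, against 2725 and 2494 in the WT arrays. In each genotype replicate 1 was the higher, and the genotypes overlapped. The log2 difference was 0.01 ± 0.13 (SE), with an interval from -0.29 to 0.32 (limma adjusted p = 1.00). Its sign was negative after median centring (-0.017) and after a further quantile normalisation (-0.029). Of the 9 genes, 3 lie on chromosome 4 with Pdpn: Penk in band A1, Ece1 in D3 and Oprd1 in D1-D3. Decr1, the other gene that passed, lies there in band A2. The share of all genes on that chromosome was not counted, and a part of position in these values was not tested.

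Neither receptor had values that separated the genotypes. Oprd1, the delta opioid receptor, for which enkephalins are the main natural ligands, read 265 and 337 in the Pdpn KO arrays, against 272 and 344 in the WT arrays. Its replicates 2 were the higher by 0.35 in Pdpn KO and by 0.33 in WT on the log2 scale. The difference between genotypes was -0.03 ± 0.17 (SE), with an interval from -0.45 to 0.38 (limma adjusted p = 1.00). As for Pcsk1, it cannot be said from these values whether Oprd1 was transcribed. Ogfr, a receptor for Met-enkephalin that is unrelated in structure to the classical opioid receptors, read 1990 and 1984 in the Pdpn KO arrays, against 1977 and 2004 in the WT arrays. The Pdpn KO values lay between the WT values, and the log2 difference was -0.0023 ± 0.11 (SE), with an interval from -0.26 to 0.26 (limma adjusted p = 1.00). For the 7 genes together, the lowest bound of a 95% interval was 0.709-fold, for Pcsk1, and the highest 1.71-fold, for Anpep, Pdpn KO over WT. The intervals of Ogfr (0.834-fold to 1.20-fold) and Dpp3 (0.771-fold to 1.11-fold) were narrower.

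**Figure D2:**
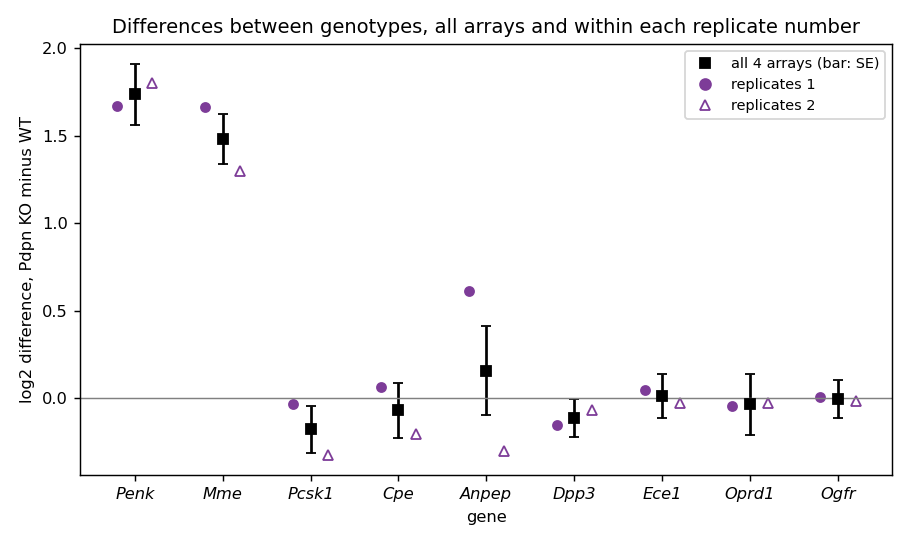
Log2 difference, Pdpn KO minus WT, for each measured gene; black squares use all 4 arrays with the SE as bar, and purple symbols compare the arrays of the same replicate number. Penk and Mme stand at 1.74 and 1.48, and the others lie between -0.18 and 0.16, with the 2 Anpep values on either side of zero.

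A wider set of 64 genes around the same pathway was examined, of which 61 had a probe set, and 0 of the 61 passed in limma in either direction, where 0.0101% of all genes passed. Their median log2 difference was 0.0038, against 0.0043 over all genes, and 1 of them had an unadjusted p under 0.05, where 2.01% of all genes did; 1 in 61 is near that background. Both Pdpn KO arrays lay above both WT arrays for 3 of the 61 and below for 4, against 14.6% and 9.74% of all genes. The lists were drawn up by function, with earlier results of these arrays known.

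Of the other opioid precursors and receptors, 7 of 7 were measured and 0 passed, with a median log2 difference of -0.06 and a range from -0.15 to 0.05. Pnoc, the precursor of nociceptin, read 193 and 235 in the Pdpn KO arrays, against 213 and 230 in the WT arrays. Whether Pnoc was transcribed cannot be said from these values. Ogfrl1, a relative of Ogfr, read 777 and 552 in the Pdpn KO arrays, against 854 and 563 in the WT arrays, so that replicate 1 was the higher in both genotypes. No member of this list had values that separated the genotypes.

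Of 17 other genes of precursor processing, which cover convertases, their inhibitors and trimming enzymes, all 17 were measured and 0 passed. Their median was -0.07. Ctsl, cathepsin L, which can also cut proenkephalin in secretory vesicles, had a log2 difference of -0.06 ± 0.17 (SE). Rnpep, aminopeptidase B, which trims basic residues from the start of peptides, read 3224 and 3101 in the Pdpn KO arrays, against 3933 and 3269 in the WT arrays (-0.18 ± 0.13, SE). Cpm, a membrane carboxypeptidase that removes basic residues from the end of peptides, was the 1 member with an unadjusted p under 0.05. It read 187 and 285 in the Pdpn KO arrays, against 113 and 169 in the WT arrays. The 2 Pdpn KO values were above the WT values, and replicate 2 exceeded replicate 1 in both genotypes. Its log2 difference was 0.74 ± 0.26 (SE) and did not pass over all genes (limma adjusted p = 1.00). It was 0.44 without Pdpn KO replicate 2 and 0.45 without WT replicate 1, which did not pass, against 1.03 without WT replicate 2, which did not pass either (limma adjusted p = 0.0895), and 1.05 without Pdpn KO replicate 1, which did (limma adjusted p = 0.0154).

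Genes of dense-core granules, the compartment in which neuroendocrine cells store processed peptides, gave 0 calls among 7 measured of 8 listed, with a median of 0.0039. Vgf, a granule protein, read 214 and 250 in the Pdpn KO arrays, against 212 and 248 in the WT arrays. Chga, chromogranin A, read 162 and 192 in the Pdpn KO arrays, against 166 and 212 in the WT arrays. In both genes the genotypes overlapped, and whether either was transcribed cannot be said from these values.

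Among 20 other peptidases of short peptides, 18 were measured and 0 passed, with log2 differences between -0.10 and 0.09. Mmel1, the closest relative of Mme in the list, was chosen after its values were seen. It read 124 and 158 in the Pdpn KO arrays, against 138 and 160 in the WT arrays (-0.08 ± 0.16, SE; interval from -0.46 to 0.29). Prep, prolyl oligopeptidase, had a difference of -0.05 ± 0.11 (SE), and Npepps, the puromycin-sensitive aminopeptidase, which also cleaves enkephalins, of -0.06 ± 0.13 (SE).

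**Figure D3:**
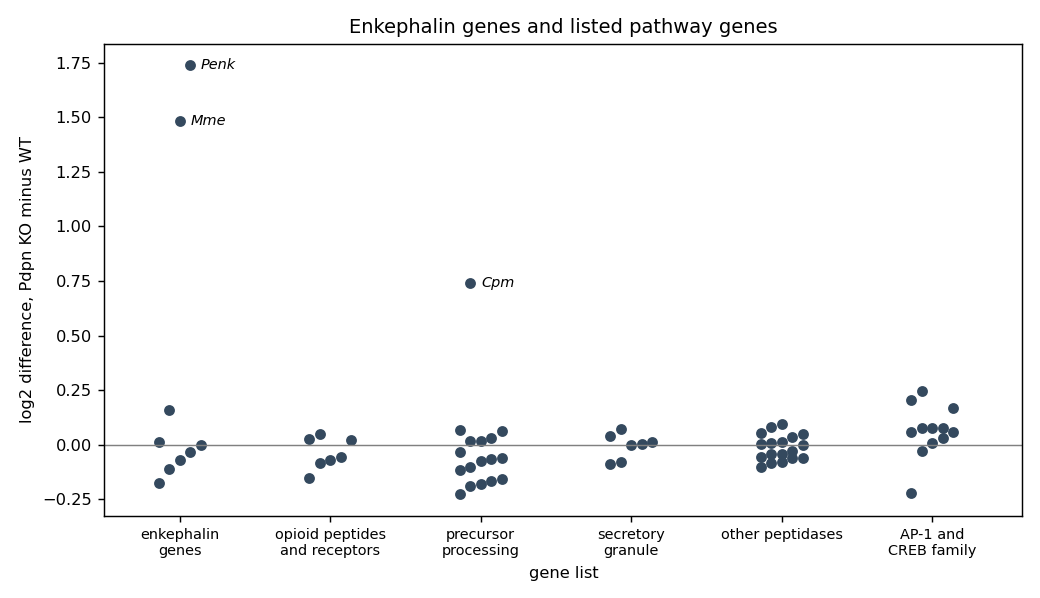
Log2 difference, Pdpn KO minus WT, of each enkephalin gene and of each measured gene of the 5 pathway lists; each point is 1 gene, spread sideways for legibility, and points beyond 0.5 are named. Penk, Mme and Cpm stand apart from points that lie between -0.23 and 0.24.

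The AP-1 and CREB families are transcription factors known to act on the Penk promoter in neural and other cells. Of 12 such genes 12 were measured and 0 passed, with a median of 0.07, against 0.0043 over all genes. Both Pdpn KO arrays lay above both WT arrays for 2 of the 12 and below for 1, against 14.6% and 9.74% of all genes. The 2 brightest genes of the list, Jun and Fosl2, overlapped. Jun read 3618 and 3760 in the Pdpn KO arrays, against 3712 and 3297 in the WT arrays (0.08 ± 0.12, SE). Fosl2, an AP-1 partner of Jun, read 3669 and 3024 in the Pdpn KO arrays, against 3121 and 3199 in the WT arrays (0.08 ± 0.13, SE).

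The promoter letters were read for these factors because Penk and Mme are the genes the account turns on. RefSeq windows of 300 bases, build GRCm38.p6, were at hand for 7 of the 9 genes (13 windows), with none for Penk and Cpe. The AP-1 motif TGAGTCA, sought on both strands, was in 2 of the 3 windows of Mme and in none of the other genes' windows, and 5.20% of 32851 windows of all genes hold it. The CRE core TGACGT, sought on both strands, was in 1 window, that of Pcsk1, and 7.51% of all windows hold it. The 2 Mme windows overlap and share the same match. The 250 bases before the last of the 3 Mme start sites, chr3:63295845-63296094 on the plus strand, are shown with the AP-1 match in capitals, whose first base lies 215 bases before that start.
Mme promoter: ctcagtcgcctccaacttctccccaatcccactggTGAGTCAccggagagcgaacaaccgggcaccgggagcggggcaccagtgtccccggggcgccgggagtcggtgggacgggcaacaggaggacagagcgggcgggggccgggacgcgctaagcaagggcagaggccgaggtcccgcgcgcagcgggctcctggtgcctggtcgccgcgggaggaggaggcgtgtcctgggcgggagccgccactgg
A match describes letters only and shows no binding.

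Markers of other cell types were read beside Penk and Mme. Their summed intensities follow the brightest probe sets of each list and do not measure cell content. Of 7 measured neural markers 0 passed, and their summed intensity was 3847 and 3882 in the Pdpn KO arrays, against 2975 and 2954 in the WT arrays. Most of that difference lay in Stmn2, a stathmin of neurons, which read 2563 and 2597 in the Pdpn KO arrays, against 1768 and 1617 in the WT arrays (0.61 ± 0.11, SE; limma adjusted p = 0.971). The other 6 summed to 1284 and 1285 in the Pdpn KO arrays, against 1206 and 1338 in the WT arrays. Their part in the Penk values was not tested. The 6 neuroendocrine markers summed to 870 and 1018 in the Pdpn KO arrays, against 940 and 1074 in the WT arrays. The 6 skeletal muscle markers summed to 1729 and 1816 in the Pdpn KO arrays, against 1676 and 1992 in the WT arrays, and the 6 epithelial markers to 1437 and 1579 in the Pdpn KO arrays, against 1589 and 1694 in the WT arrays.

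For 7 endothelial markers the sums were 1351 and 1293 in the Pdpn KO arrays, against 1666 and 1405 in the WT arrays, of which Emcn, endomucin, read 196 and 177 in the Pdpn KO arrays, against 459 and 351 in the WT arrays. The other 6 summed to 1155 and 1116 in the Pdpn KO arrays, against 1207 and 1054 in the WT arrays. The 7 blood cell markers summed to 1172 and 943 in the Pdpn KO arrays, against 1106 and 927 in the WT arrays. None of these markers passed over all genes in limma. An unadjusted limma p under 0.05 was found for 1 of the 7 endothelial markers, Emcn, and 1 of the 7 neural markers, Stmn2. No blood, neuroendocrine, epithelial or skeletal muscle marker had one, and 2.01% of all genes did. The log2 difference of Emcn was -1.11 ± 0.16 (SE), without overlap between the genotypes.

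The genes whose profiles lay nearest to those of Penk and Mme were sought by the distance between log2 values centred on each gene's mean, over 4 arrays, with the enkephalin genes themselves left out. Outside these, nearest to Penk were Serpinb10 (distance 0.610), a serine protease inhibitor of the serpin family, Tbx5 (0.725), a T-box factor of the forelimb and heart, and Prg4 (0.729), which encodes lubricin. Mme itself lay at 0.605 from Penk, closer than any of them. Outside the enkephalin genes, nearest to Mme were Crabp2 (0.260), a retinoic acid binding protein, Serpinb10 (0.283) and Prg4 (0.331). Crabp2 read 1043 and 1063 in the Pdpn KO arrays, against 365 and 526 in the WT arrays. Serpinb10 read 234 and 196 in the Pdpn KO arrays, against 83.5 and 93.5 in the WT arrays. Being near to Penk or Mme means by construction having higher Pdpn KO values, so these genes describe the arrays and carry no test.

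**Figure D4:**
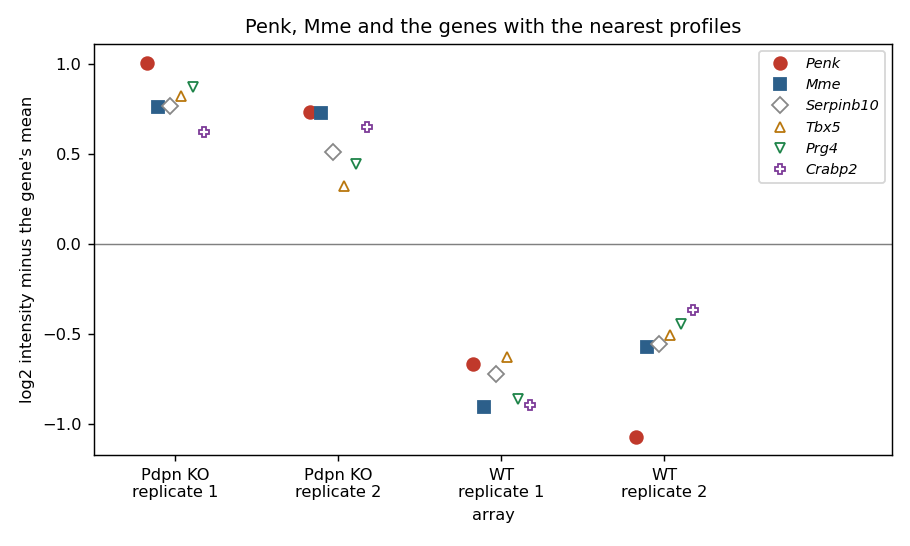
Log2 intensity of Penk, Mme and the 4 genes with the nearest profiles, each minus its mean over the 4 arrays. The profiles split by genotype, and Penk departs from the others in WT replicate 2, where it is lowest, while the others are lowest in WT replicate 1.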

How the data were processed

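The deposited values are RMA intensity on a linear scale, 1 per probe set and array, made by the authors with RMA, per the submitters' processing notes; no source used here states its version or settings. The series value table of 24679 probe sets was used; a second deposited table of the same arrays differed by at most 0.005. Log2 was taken with no pseudocount or filter. Gene symbols are those of the platform annotation (21354 with 1 symbol, 1275 with several, 2050 not listed and left unnamed), and the brightest per symbol was kept, which gave 19751 genes.

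Pdpn KO was compared with WT in limma 3.58.1 (R 4.3.3; lmFit, eBayes, two-sided, with Benjamini-Hochberg adjustment over the whole table). The fit was tested on simulated data in which the arrays vary independently. In the arrays here, replicate differences correlate between the genotypes, as the closing section gives, and the simulation does not cover this. With 2 arrays per genotype, p-values rest on the spread of these arrays alone, which may be technical, and their number limits precision. Members and lists were chosen with earlier results of these data known. Named genes were Pdpn, all members, each list's 2 brightest genes and those with an unadjusted p under 0.05. Also named were Xist, Eif2s3y and the 3 nearest profiles each of Penk and Mme. Decr1, Vim, Col1a1, Lum, Stmn2, Emcn and Mmel1 were named after their values were seen. Planned features of the proteins were not computed, and the promoter search was added after the data were seen. The closing section gives the alternatives.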

Additional observations from a re-analysis of the deposited data

How the results depend on the processing

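The log2 difference ran from 1.53 to 1.94 for Penk and from 1.32 to 1.65 for Mme, these extremes being with 1 array left out; as both were picked on these arrays, their direction is no sign of stability. None of the other 7 genes passed in any alternative in which it was tested (lowest limma adjusted p = 0.471). Their differences near zero changed sign in places: Ece1 was -0.017 after median centring and -0.029 after quantile normalisation. With each array left out in turn, the differences ran from -0.088 to 0.11 for Ece1, -0.21 to 0.14 for Oprd1, -0.25 to 0.57 for Anpep, -0.26 to 0.12 for Cpe and -0.012 to 0.0077 for Ogfr. The number of genes past the threshold, 2 as reported, was 1 without the dimmer 50% of genes, 9 with a robust intensity-dependent prior, and between 5 and 100 with 1 array left out (leaving out Pdpn KO replicate 1 gave 100 and Pdpn KO replicate 2 gave 50, whereas leaving out WT replicate 1 gave 5 and WT replicate 2 gave 53). The lone array of a genotype is then assumed to vary like the others. Of the 61 listed genes 0 to 1 passed with 1 array left out. With the replicate number as a replicate block, 34 genes passed (0.172% of all), 1 of them a listed gene, Cpm (limma adjusted p = 0.0365), and 0 of the 7. Across genes, the difference between replicates 2 and 1 in Pdpn KO correlated with that in WT (r = 0.581), but the labels do not say what a number shares. Pcsk1 was not tested without the dimmer 25% or 50% of genes, nor Oprd1 without the dimmer 50%. The cause of these changes was not tested. RMA leaves no background level, so low values such as those of Pcsk1 cannot be set against one.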
